A study of Mus musculus with 6 samples.

Results

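The interferon-inducible GTPases described here are 10 mouse genes, namely Gbp2, Gbp3, Gbp5, Gbp7 and Gbp9 of the guanylate-binding protein family and Irgm1, Irgm2, Igtp, Ifi47 and Iigp1 of the immunity-related GTPase (IRG) family. They were taken by symbol from deposited expression tables that together held 18946 genes, and all 10 members stood in both tables. Of the 10 members, 9 passed the filter on low values and entered the test with 11050 genes in all, and Iigp1 did not pass. RNA came from BaF3 cells, a mouse line that depends on interleukin-3. The medium held 10% serum with interleukin-3 at 2 ng/mL, and cells were sorted 24 h after plasmids had been brought in by nucleofection. In the CTdel group the plasmid coded for the green fluorescent protein Clover together with a mutated form of the Notch1 intracellular part. In the ICN group it coded for Clover and the intracellular part itself, the piece of the receptor that enters the nucleus on signalling, and in the con group for Clover alone. All 3 groups therefore carried Clover and went through nucleofection and sorting, and each had 2 libraries, numbered 1 and 2. The sources used here do not give the change that CTdel names, the signal used for sorting or the species behind the ICN insert. Amounts of plasmid per cell are not given either, so in the changes against con a part of the added insert DNA cannot be told apart from that of its protein. Nothing says that the libraries of a group are separate cultures, and p-values then measure only the spread between these libraries, which may be technical.

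Guanylate-binding proteins and IRG proteins are large GTPases that interferons, above all interferon gamma, switch on in mouse cells. They gather on the membranes of vacuoles that hold parasites or bacteria, where they help to break the vacuole open, and several guanylate-binding proteins also feed the sensing of bacterial products by inflammasomes. Among the IRG proteins, Irgm1, Irgm2 and Igtp sit on the cell's own membranes and hold the others in an inactive state, while Iigp1 and Ifi47 belong to the effectors that load onto vacuoles. In GRCm38, Gbp5, Gbp7, Gbp3 and Gbp2 lie in a cluster within chr3:142496934-142638008, and Gbp9 lies at chr5:105076464-105110357. Igtp and Irgm2 are close neighbours within chr11:58199556-58222783, Irgm1 lies at chr11:48865245-48871420 and Ifi47 at chr11:49076587-49096987, and Iigp1 is on chromosome 18. Their promoters are known for short sites of 2 kinds at which interferon signals act, gamma-activated sites (GAS) and interferon-stimulated response elements (ISRE), the second bound by factors such as IRF1 and IRF9.

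The values are FPKM, in which fragments are divided by transcript length and by the size of the library, so levels can be compared between genes per length. FPKM summed to between 489693 and 507894 per library, the relative depth lay between 0.962 and 1.08 of that of con replicate 1, and 14951 to 16946 genes were above 0. Notch1, the transfected gene, was at 84.94 and 25.36 FPKM in CTdel replicates 1 and 2, at 190.02 and 888.47 FPKM in ICN replicates 1 and 2, and at 0.89 and 1.72 FPKM in con. ICN replicate 2 thus had the highest Notch1 value, and the CTdel libraries had lower values than the ICN libraries. The lengths of the inserts are not given, so these values cannot compare amounts of Notch1 RNA between the forms. Of the markers of the labelled pro-B line, the interleukin-3 receptor genes were present, with Csf2rb at 165.75 to 296.52 FPKM. The B-lineage markers Vpreb1, Igll1, Ebf1 and Pax5 were at or below 0.37 FPKM in every library that listed them. Not every B-lineage marker sought was this low, and the others are not reported here. Summed T-cell markers reached at most 2.23 FPKM. Of 3 natural killer markers sought, 1 was listed, Eomes, at no more than 0.14 FPKM. Summed macrophage markers, most of them Adgre1, were at 73.22 and 54.97 FPKM in CTdel, 65.86 and 22.65 FPKM in ICN and 62.61 and 36.59 FPKM in con, with Cd14 at or below 0.03 FPKM. Summed fibroblast and endothelial markers, nearly all Pecam1, were at 47.05 and 44.11 FPKM in CTdel, 49.21 and 40.29 FPKM in ICN and 63.21 and 52.25 FPKM in con. Neither sum was highest in ICN replicate 2 or lowest in con replicate 2, as the members were. Within the macrophage list Csf1r, the receptor of the macrophage growth factor, was at 7.96 and 1.72 FPKM in CTdel and 3.34 and 0.1 FPKM in ICN, against 0.05 and 0.01 FPKM in con. Its change with both forms together was 1.67 (SE 0.427, adjusted p = 0.166 in limma), and its part in the results was not tested.

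Mean levels of the GTPases stood above con with either Notch1 form, and the median change with both forms together was 2.80 for the 5 Gbp members and 1.05 for the 4 tested IRG members on the log2 scale. One of the 9 tested members passed the test, and the difference between the families was not tested. Summed over the 10 members, FPKM were 210.36 and 228.95 in CTdel and 252.07 and 677.07 in ICN, against 148.53 and 67.53 in con. In bulk RNA, more RNA per cell and more cells that express a gene cannot be told apart. Group means ran in the order ICN, CTdel, con for 10 of 10 members, while in replicate 1 Gbp5 and Gbp9 were higher in CTdel than in ICN. The share of all tested genes with this order of means was not counted. In 7 of 10 members, and in 6 of the 9 tested ones, all 4 libraries with a Notch1 form lay above both con libraries, against 12% of all tested genes. The member that passed was Gbp5, higher with both forms together than with Clover alone. Irgm1, Irgm2 and Ifi47 were lower in CTdel replicate 1 than in con replicate 1. The libraries of ICN and of con lay apart: ICN replicate 2 was the highest library and con replicate 2 the lowest for 10 of 10 members, which was true of 11.3% of all tested genes.

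**Figure D1:**
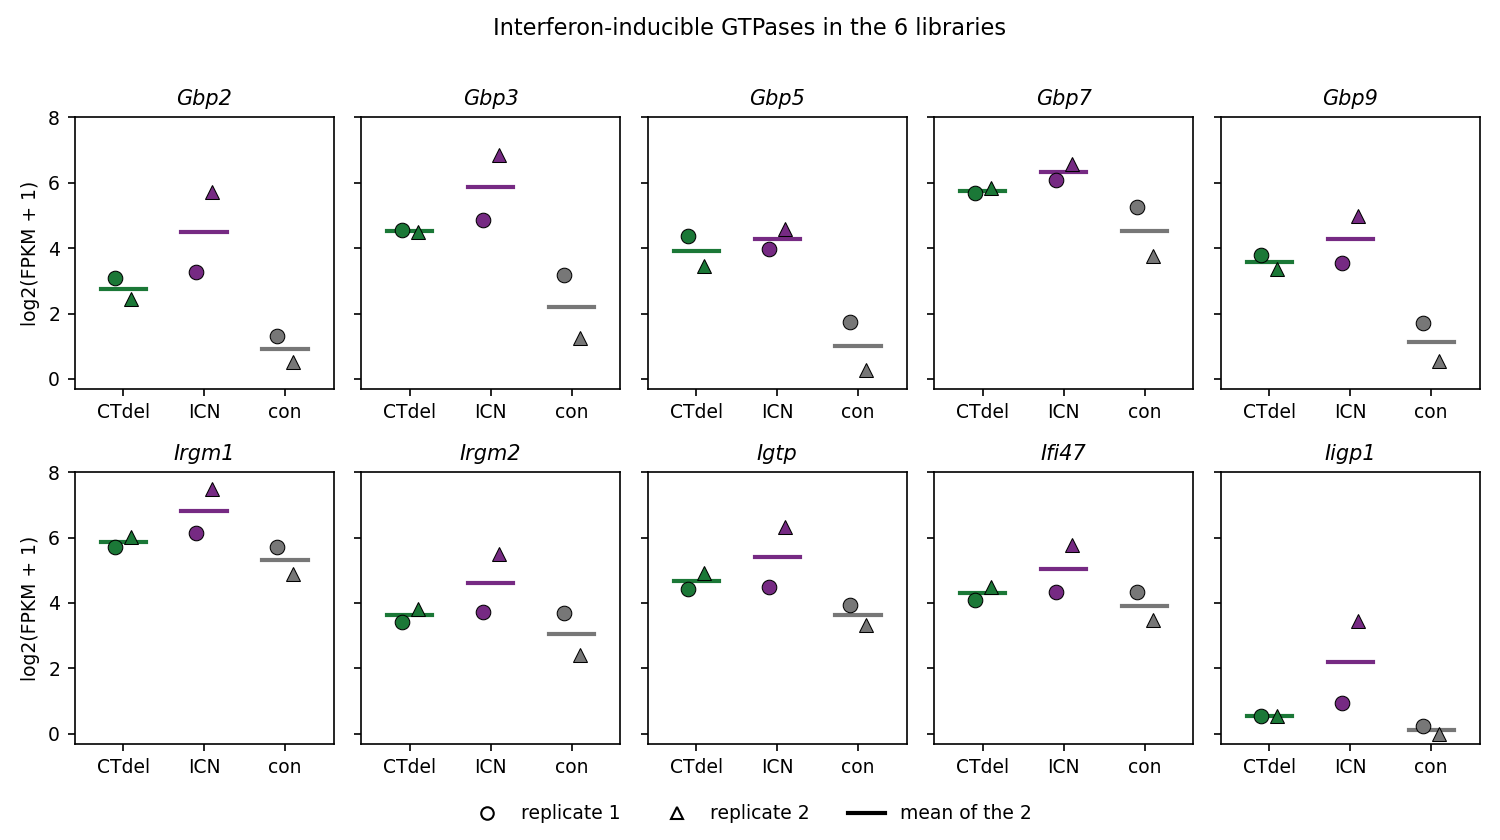
Level of each member as log2(FPKM + 1) in CTdel, ICN and con libraries; circles are replicate 1, triangles replicate 2, and bars the mean of the 2 values. For all 10 genes ICN replicate 2 is the highest point and con replicate 2 the lowest, and the CTdel points lie closest together for Gbp3, Gbp7 and Iigp1.

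Gbp5, which in mice promotes assembly of the NLRP3 inflammasome, was at 19.74 and 9.91 FPKM in CTdel and 14.84 and 22.99 FPKM in ICN, against 2.36 and 0.22 FPKM in con. CTdel and ICN overlapped, and all 4 of their libraries were above both con libraries. With both forms together Gbp5 rose by 3.08 on the log2(FPKM + 1) scale (SE 0.419, adjusted p = 0.0406 in limma over 11050 genes), in a comparison that called 1.01% of all tested genes higher. Without con replicate 2 the same change was 2.43 with an adjusted p of 0.102. With all 6 libraries kept, the call was also lost with a pseudocount of 0.1 (adjusted p = 0.0598), with no filter on low values (adjusted p = 0.246) and with quantile normalization (adjusted p = 0.05001). Taken one by one against con, the change of Gbp5 was 2.89 in CTdel (SE 0.484, adjusted p = 0.0631) and 3.27 in ICN (SE 0.484, adjusted p = 0.120), and neither passed.

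Gbp9 gave a like picture, at lower levels than Gbp5 in CTdel and in ICN replicate 1 and at a higher level in ICN replicate 2. It was at 12.72 and 9.33 FPKM in CTdel and 10.67 and 30.89 FPKM in ICN, against 2.24 and 0.46 FPKM in con. Its change with both forms together was 2.80 on the log2 scale (SE 0.510, adjusted p = 0.0795), which missed the threshold, and all 4 libraries with a Notch1 form were above both con libraries.

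Gbp2 and Gbp3, which in mouse cells gather on the vacuole of Toxoplasma, had their widest gap in replicate 2. Gbp2 was at 7.56 and 4.39 FPKM in CTdel and 8.61 and 51.04 FPKM in ICN, against 1.5 and 0.43 FPKM in con. Gbp3 was at 22.27 and 21.28 FPKM in CTdel and 28.2 and 113.64 FPKM in ICN, against 8.02 and 1.38 FPKM in con. For both genes the 3 groups did not overlap, with ICN above CTdel and CTdel above con. Their changes with both forms together were 2.70 (SE 0.680, adjusted p = 0.163) for Gbp2 and 2.97 (SE 0.718, adjusted p = 0.152) for Gbp3, about as large as that of Gbp5 with a wider error.

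Gbp7, linked in mice to the assembly of the phagocyte oxidase, was the guanylate-binding protein with the highest level in con. It was at 50.21 and 55.56 FPKM in CTdel and 66.66 and 93.12 FPKM in ICN, against 37.3 and 12.65 FPKM in con. The 3 groups did not overlap here either, and its change with both forms together was the smallest of the 5 Gbp members at 1.52 on the log2 scale (SE 0.412, adjusted p = 0.186).

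The promoters of these genes are shown because their known regulators bind short sites close to the start. All 10 members were also highest in ICN replicate 2 and lowest in con replicate 2, though their changes in replicate 1 differed. RefSeq windows of GRCm38.p6, from 250 bases before to 50 after the transcription start, were at hand for 8 of the 10 members, all but Gbp9 and Iigp1. An ISRE, searched as GAAANNGAAA or TTTCNNTTTC, stood in 7 of these 8 windows and in 3.44% of all 32851 windows. A GAS, searched as TTCNNNGAA, which reads the same on both strands, stood in 4 of the 8 (Gbp5, Gbp7, Igtp and Irgm2) and in 8.3% of all windows. The letters TGGGAA or TTCCCA, the core bound by RBPJ, the DNA-binding partner of the Notch1 intracellular part, stood in 3 of the 8 (Gbp3, Gbp5 and Gbp7) and in 25.6% of all windows. A match is a run of letters and says nothing of binding in these cells. The bases just before the start of the Gbp genes, all on the plus strand of chromosome 3, were as follows, with ISRE and GAS letters in capitals. They run over chr3:142620543-142620662 for Gbp2, chr3:142559924-142560015 for Gbp3, chr3:142496754-142496933 for Gbp5 and chr3:142530216-142530335 for Gbp7.
Gbp2: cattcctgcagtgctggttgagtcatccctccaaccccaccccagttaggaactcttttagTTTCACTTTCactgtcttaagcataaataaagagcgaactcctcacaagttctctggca
Gbp3: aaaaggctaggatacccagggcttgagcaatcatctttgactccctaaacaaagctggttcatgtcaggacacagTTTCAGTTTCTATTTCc
Gbp5: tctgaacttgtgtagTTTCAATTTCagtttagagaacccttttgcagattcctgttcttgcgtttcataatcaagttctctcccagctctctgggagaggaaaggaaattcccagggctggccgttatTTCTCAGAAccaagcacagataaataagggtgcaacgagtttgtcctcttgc
Gbp7: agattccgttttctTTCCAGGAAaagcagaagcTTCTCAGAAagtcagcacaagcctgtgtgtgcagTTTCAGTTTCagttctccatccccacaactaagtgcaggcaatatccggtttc

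In all 4 the ISRE reads on the minus strand. It starts at −59 from the transcription start in Gbp2, at −53 in Gbp7 and at −165 in Gbp5, the member that passed the test. Gbp3 holds a pair of overlapping ISRE matches, at −45 and −39, counted from chr3:142560044, the first of 2 starts with a RefSeq window. That start lies 28 bases inside the gene record, and the printed stretch stops where the record begins. Gbp5 and Gbp7 each hold 2 GAS matches, of which the one at −245 in Gbp5 lies outside the stretch printed.

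**Figure D2:**
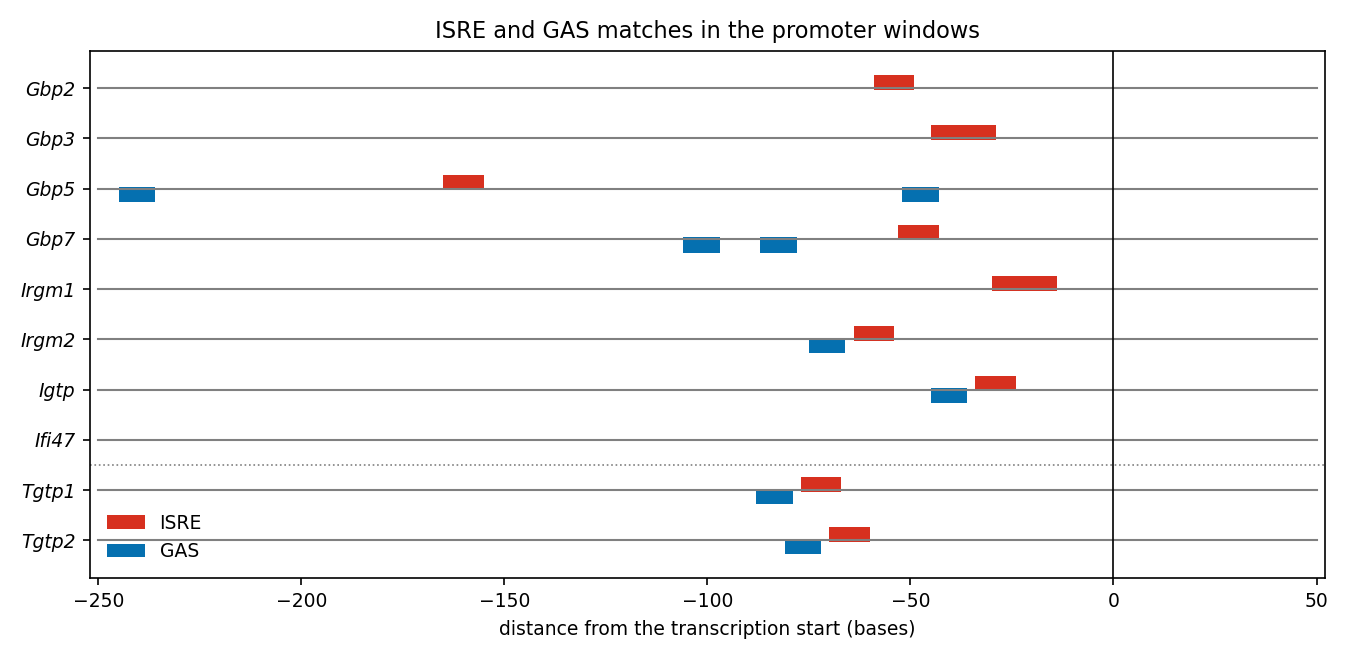
Positions of ISRE matches (red, above the line) and GAS matches (blue, below the line) in the promoter windows of 8 members and, under the dotted line, of Tgtp1 and Tgtp2; the horizontal axis is the distance from the transcription start in bases. ISRE matches begin at −64 or closer to the start in 6 members and at −165 in Gbp5, and Ifi47 has no match.

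Among the IRG genes the 3 regulators and the effector Ifi47 were expressed in con cells. With both forms together their changes were smaller than those of the Gbp members. Irgm1, a regulator found on Golgi and lysosomal membranes, was at 50.98 and 64.22 FPKM in CTdel and 69.48 and 178.99 FPKM in ICN, against 51.5 and 28.84 FPKM in con. ICN lay above con and CTdel did not, since CTdel replicate 1 was just under con replicate 1. Its change with both forms together was 1.03 on the log2 scale (SE 0.423, adjusted p = 0.326).

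Igtp, also called Irgm3 and found on the endoplasmic reticulum, was at 20.48 and 29.28 FPKM in CTdel and 21.43 and 78.69 FPKM in ICN, against 14.2 and 8.98 FPKM in con. It was the one IRG member that passed the filter and had all 4 of these libraries above con, with a change of 1.41 (SE 0.468, adjusted p = 0.254). Irgm2 was at 9.76 and 13.02 FPKM in CTdel and 12.18 and 44.19 FPKM in ICN, against 11.83 and 4.34 FPKM in con. CTdel overlapped with con, ICN replicate 1 was above con replicate 1 by only 0.04 on the log2 scale, and the change with both forms together was 1.06 (SE 0.571, adjusted p = 0.442).

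The 2 effectors differed in level. Ifi47 was at 16.18 and 21.49 FPKM in CTdel and 19.06 and 53.5 FPKM in ICN, against 19.4 and 10.23 FPKM in con, and was the single member whose ICN libraries overlapped with con. Its change with both forms together was the smallest of the 9 tested members at 0.75 (SE 0.446, adjusted p = 0.480). Iigp1 was at 0.46 and 0.47 FPKM in CTdel and 0.94 and 10.02 FPKM in ICN, against 0.18 FPKM in con replicate 1 and listed at 0 in con replicate 2. It passed 1 FPKM in ICN replicate 2 alone and was not tested.

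The upstream bases of the 3 regulators, all on chromosome 11, are given for comparison with the Gbp genes. They run over chr11:48871421-48871540 (minus strand) for Irgm1, chr11:58214857-58214976 (plus strand) for Irgm2 and chr11:58199436-58199555 (plus strand) for Igtp, with ISRE and GAS letters in capitals.
Irgm1: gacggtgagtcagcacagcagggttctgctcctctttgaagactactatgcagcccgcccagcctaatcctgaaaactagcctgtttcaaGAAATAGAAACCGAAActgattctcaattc
Irgm2: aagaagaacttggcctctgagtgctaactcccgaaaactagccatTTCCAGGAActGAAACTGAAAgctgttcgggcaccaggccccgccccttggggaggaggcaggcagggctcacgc
Igtp: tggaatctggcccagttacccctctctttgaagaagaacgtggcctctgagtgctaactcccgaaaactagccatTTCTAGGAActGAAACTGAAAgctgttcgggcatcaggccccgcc

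In these genes the ISRE reads on the strand of the gene itself. In Igtp and Irgm2 a GAS stands 2 bases before an ISRE, so that both form a run of 21 bases, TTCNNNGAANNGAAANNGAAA. This joint pattern was chosen after the sequences were seen. It stood in 5 of the 32851 windows, 0.0152%, and all 5 genes lie on chromosome 11: Igtp, Irgm2, Tgtp1, Tgtp2 and Gm12185. The 4 of them listed among the GTPases here read as follows, with the fixed letters in capitals.
Igtp: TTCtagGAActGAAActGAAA
Irgm2: TTCcagGAActGAAActGAAA
Tgtp1: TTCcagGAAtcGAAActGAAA
Tgtp2: TTCcagGAAtcGAAAccGAAA

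Counted from the transcription start, the run begins at −45 in Igtp, −75 in Irgm2, −88 in Tgtp1 and −81 in Tgtp2. These windows are copies of each other in part and do not count as independent: those of Igtp and Irgm2 share an unbroken stretch of 61 bases and 68.1% of 270 aligned bases. With both forms together the log2 change was 1.41 for Igtp, 1.06 for Irgm2, 2.25 for Tgtp1 and 1.11 for Tgtp2, and differences between these genes were not tested.

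Because each replicate number stood in a table of its own, changes were also taken within a table, against its own con library. In replicate 1 the 5 Gbp members had changes of 0.42 to 2.63 in CTdel and 0.82 to 2.24 in ICN on the log2(FPKM + 1) scale. The 4 tested IRG members had changes of −0.25 to 0.50 in CTdel and −0.02 to 0.56 in ICN in that replicate, so the ranges of the families met only at Gbp7 in CTdel. In replicate 2 the Gbp members had changes of 1.91 to 3.23 in CTdel and 2.79 to 5.59 in ICN, and the tested IRG members 1.0 to 1.60 in CTdel and 2.28 to 3.08 in ICN. Every member thus stood further above con in replicate 2 than in replicate 1 in both groups. Beside this, con replicate 1 exceeded con replicate 2 for 10 of 10 members, by 1.58 times (Igtp) to 10.7 times (Gbp5) in the 9 tested ones. How many of all tested genes had con replicate 1 above con replicate 2 was not counted. Notch1 was also further above con in replicate 2 of ICN, with log2 changes of 6.66 in replicate 1 and 8.35 in replicate 2, and not in CTdel, with 5.51 and 3.28. The part of the Notch1 level or of the con libraries in these differences was not tested.

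**Figure D3:**
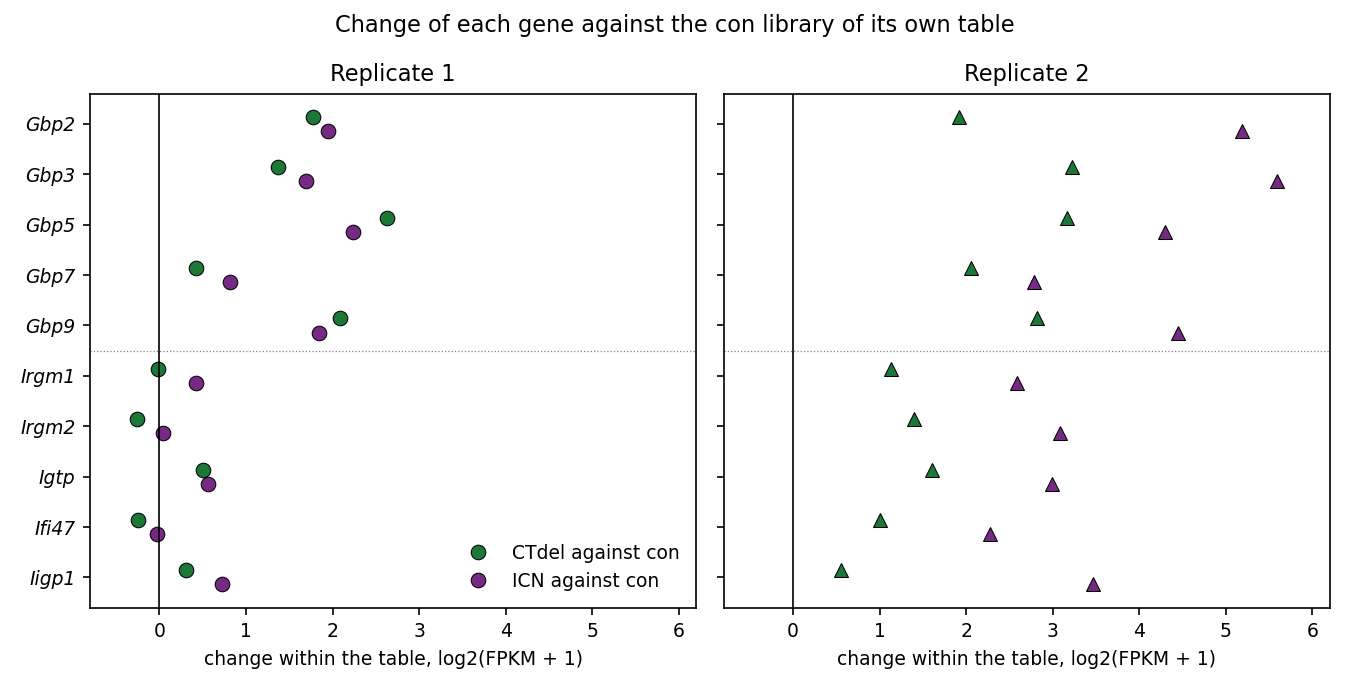
Change of each member in CTdel (green) and ICN (purple) against the con library of the same table, on the log2(FPKM + 1) scale, with replicate 1 at the left and replicate 2 at the right; the dotted line parts the Gbp genes (above) from the IRG genes (below). In replicate 1 Irgm1, Irgm2 and Ifi47 lie near 0, between −0.25 and 0.42, while in replicate 2 all 10 genes lie at 0.56 or more.

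Against con, CTdel and ICN share the con libraries, so their changes are not independent of each other and are given side by side. In CTdel the 9 tested members had a median change of 1.24, against −0.06 over all tested genes, and 0 of 9 passed, in a comparison that called 1.3% of all genes higher. At an unadjusted p under 0.05, 4 of 9 members passed in CTdel, all of them Gbp genes, against 11.8% of all tested genes. In ICN the median change was 1.80, against 0.00 over all tested genes, and again 0 of 9 passed, in a comparison that called 0.0362% of all genes higher. At an unadjusted p under 0.05, 7 of 9 members passed in ICN, against 15% of all tested genes. The adjusted p of the 9 members ran from 0.0631 (Gbp5) to 0.856 (Ifi47) in CTdel and from 0.120 (Gbp5) to 0.366 (Ifi47) in ICN. Both CTdel libraries lay above both con libraries in 6 of the 9 tested members, against 18.3% of all tested genes. Both ICN libraries did so in 8 of 9, against 22.7%.

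Set against ICN, CTdel gave lower fitted values for 9 of 9 tested members, and for 6041 of all 11050 tested genes. In the members the differences ran from −0.37 (Gbp5) to −1.72 (Gbp2) on the log2 scale. None of these differences passed the test, and none reached an unadjusted p under 0.05, which 7.13% of all tested genes did, in a comparison that called 0.0181% of all tested genes lower. For Gbp2 the 95% interval of the difference ran from −3.66 to 0.22, and for Gbp5 from −1.57 to 0.82, and both intervals include 0. The gap came mostly from replicate 2, where CTdel lay below ICN by 0.73 to 3.27 on the log2 scale in 10 of 10 members. In replicate 1 the difference of CTdel from ICN ran from −0.44 (Irgm1) to 0.39 (Gbp5), and CTdel was higher for Gbp5 and Gbp9. Without ICN replicate 2 the fitted difference turned positive for 7 of the 9, Gbp3, Gbp5, Gbp7, Gbp9, Igtp, Irgm2 and Ifi47, at 0.01 to 0.52. Without ICN replicate 1, which leaves ICN replicate 2 as the lone ICN library, it ran from −1.14 (Gbp7) to −3.31 (Gbp2).

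**Figure D4:**
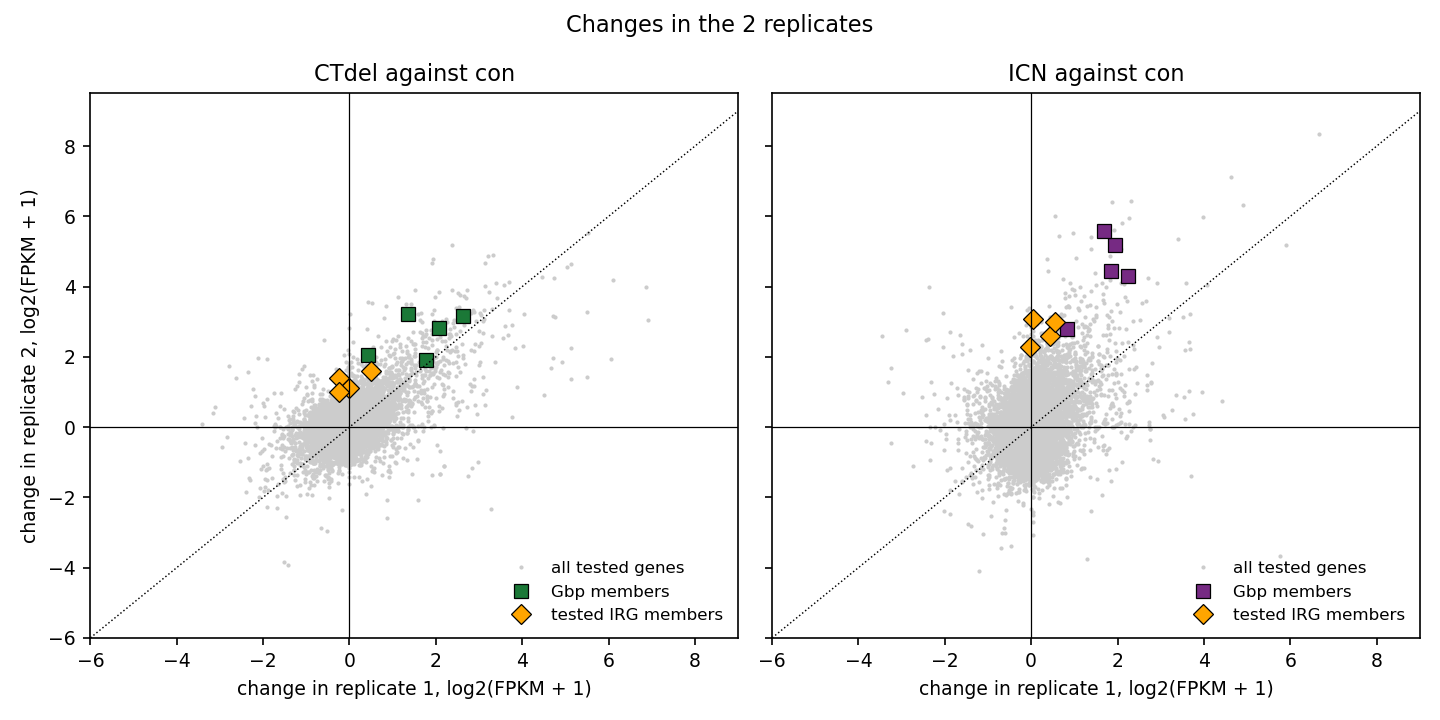
Change against con in replicate 1 (horizontal axis) and replicate 2 (vertical axis) on the log2(FPKM + 1) scale for the 11050 tested genes (grey), with the Gbp members as squares and the tested IRG members as diamonds; CTdel is at the left and ICN at the right. The Gbp members lie above 0 on both axes, the lowest at 0.42 in replicate 1 (Gbp7 in CTdel). The IRG members lie above 0 in replicate 2 and between −0.25 and 0.56 in replicate 1. In ICN all 9 lie above the dotted line of equal change.

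A list of 18 further GTPase genes of the same or related families had 12 tested. Of these, 11 had a positive change with both forms together, against 5177 of all 11050 tested genes. The median change of the 12 was 1.48, against −0.03 over all tested genes. None of the 12 passed in limma in any of the 4 comparisons, while at an unadjusted p under 0.05 there were 7 with both forms together, 2 in CTdel against con, 8 in ICN against con and 2 in CTdel against ICN. Of all tested genes, 15.4%, 11.8%, 15% and 7.13% passed that level in these comparisons. Gbp2b, the neighbour of Gbp2, was at 6.91 and 4.06 FPKM in CTdel and 8.17 and 39.88 FPKM in ICN, against 1.6 and 0.39 FPKM in con, a profile close to that of Gbp2. Tgtp1, an IRG effector also known as Irgb6, was at 5.19 and 3.54 FPKM in CTdel and 4.51 and 13.07 FPKM in ICN, against 0.71 and 0.21 FPKM in con. Its change with both forms together was 2.25 (SE 0.420, adjusted p = 0.0860). Its near copy Tgtp2 was at 14.19 and 22.77 FPKM in CTdel and 19.67 and 57.36 FPKM in ICN, against 17.74 and 6.55 FPKM in con, and shares 89.8% of its 50-base stretches with Tgtp1. The split of reads between Tgtp1 and Tgtp2 is therefore uncertain.

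Gbp4, Gbp6, Gbp10 and Gbp11, on chromosome 5 with Gbp9, had log2 changes of 1.23, 1.74, 1.73 and 0.78 with both forms together, with adjusted p of 0.256 to 0.530. Gbp6 and Gbp10 share 90.2% and 82.5% of their 50-base stretches with other genes, so their own levels are uncertain. Gbp8 reached at most 0.34 FPKM in CTdel and 0.78 FPKM in ICN and was listed at 0 in con. Of the members themselves, 0.234% (Gbp5) to 12.7% (Gbp7) of such stretches occur in another gene, and 11.8% of those of Igtp occur in Irgm2, with which it shares 162 exon bases in the GENCODE annotation, whose transcripts reach beyond the RefSeq gene bounds. Gbp7 overlaps with Gm43802 by 637 exon bases and Ifi47 with Olfr56 by 111, each on the same strand, so part of their reads may belong to either gene.

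Mx1 and Mx2, antiviral GTPases that answer mainly to type I interferon, had a wider gap between the forms. Mx2 was at 12.36 and 12.36 FPKM in CTdel and 29.34 and 372.66 FPKM in ICN, against 5.15 and 3.34 FPKM in con. Mx1 was at 2.55 and 4.21 FPKM in CTdel and 5.52 and 49.51 FPKM in ICN, against 1.49 and 0.49 FPKM in con. CTdel differed from ICN by −2.99 in Mx2 (adjusted p = 0.658) and by −2.08 in Mx1 (adjusted p = 0.688) on the log2 scale, and neither passed. Gvin1, a very large inducible GTPase, had the one negative change of the 12 with both forms together at −0.53 (adjusted p = 0.423). Gvin1 and Gm4070 share at least 97.7% of their 50-base stretches, so the values of both are uncertain, and the change of Gm4070 was 0.75 (adjusted p = 0.556). That of Irgq was 0.08. The IRG genes Gm12250, Gm4951, F830016B08Rik and Irgc1, with the GTPase gene Gm5431, reached at most 0.93 FPKM in CTdel, 2.75 FPKM in ICN and 0.62 FPKM in con and were not tested.

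**Figure D5:**
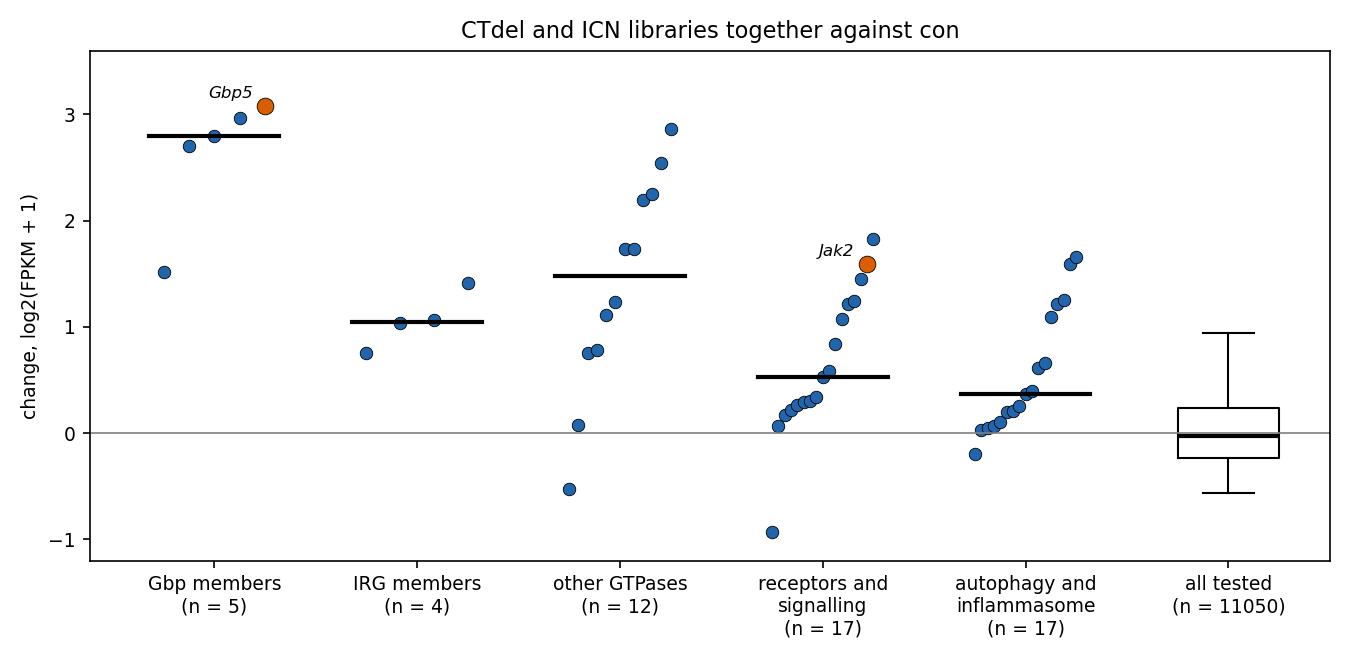
Change of each tested gene with CTdel and ICN libraries together against con, on the log2(FPKM + 1) scale, for 5 lists; bars are list medians, orange points passed the test, and the box spans the quartiles of all 11050 tested genes with whiskers at their 5th and 95th percentiles. The Gbp members have a median of 2.80, the tested IRG members 1.05, the other GTPases 1.48, receptors and signalling 0.53, and autophagy and inflammasome partners 0.37.

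Upstream of the GTPases, interferons act through receptors, JAK kinases and transcription factors such as the IRFs. In this list of 18 genes 17 were tested, and with both forms together 1 passed higher, against 1.01% of all tested genes, and 0 passed lower. The median change was 0.53, against −0.03 over all tested genes. Jak2, the kinase of the interferon gamma receptor and also of the interleukin-3 receptor, was at 70.3 and 77.28 FPKM in CTdel and 48.91 and 34.06 FPKM in ICN, against 20.3 and 15.15 FPKM in con. It rose by 2.01 in CTdel (SE 0.239, adjusted p = 0.0265) and by 1.59 with both forms together (SE 0.207, adjusted p = 0.0359), and was higher in CTdel than in ICN in both replicates. Irf1, which drives Gbp genes, was at 19.49 and 24.43 FPKM in CTdel and 18.27 and 35.3 FPKM in ICN, against 9.4 and 6.73 FPKM in con, with a change of 1.45 with both forms together (adjusted p = 0.102). Irf9, which acts in the response to type I interferon, was at 50.04 and 66.69 FPKM in CTdel and 39.15 and 126.88 FPKM in ICN, against 32.64 and 22.06 FPKM in con, with a change of 1.22 (adjusted p = 0.273). Irf1 and Irf9 were both highest in ICN replicate 2 and lowest in con replicate 2, as the members were.

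The receptor genes stood closer to con. With both forms together the change was 0.53 for Ifngr1 (adjusted p = 0.270) and 0.58 for Ifngr2 (adjusted p = 0.388), the chains of the interferon gamma receptor. Socs1, the feedback inhibitor of JAK kinases that interferon normally raises, had the single negative change of the list. It was at 8.6 and 6.32 FPKM in CTdel and 9.92 and 8.2 FPKM in ICN, against 16.72 and 16.14 FPKM in con, with no overlap with con and a change of −0.93 (SE 0.177, adjusted p = 0.0894), which missed the threshold. Usp18, a type I interferon feedback gene picked out here after its values were seen, was at 40.67 and 51.31 FPKM in CTdel and 46.5 and 377.11 FPKM in ICN, against 35.7 and 12.56 FPKM in con. Its change of 1.83 (SE 0.817, adjusted p = 0.362) rests on replicate 2.

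Transcripts of interferons themselves were at the edge of detection. Of 21 ligand genes sought, 9 stood in both tables and 0 passed the filter. In these 9, FPKM summed to 2.29 and 0.73 in CTdel and 4.34 and 5.26 in ICN, against 0.87 and 0.64 in con. The number above 0 was 5 and 6 of 9 in CTdel and 8 and 8 in ICN, against 1 and 3 in con. Over all genes the groups had the same order, with 15822 and 15599 above 0 in CTdel and 16413 and 16946 in ICN. In con there were 14951 and 14981. Ifnb1, the interferon beta gene, picked out after its values were seen, was at 0.64 and 0.07 FPKM in CTdel and 1.55 and 0.51 FPKM in ICN, and listed at 0 in both con libraries. Of these ligand genes Ifna1, Ifna4, Ifna5, Ifna6, Ifnab and Ifnz were higher in ICN replicate 2 than in ICN replicate 1, and Ifnb1, Ifna2 and Ifna13 were lower. Ifng stood in the table of replicate 2 only, listed at 0 in CTdel and ICN and at 0.04 FPKM in con. Read totals are unknown, so values this low have no error of their own.

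Downstream, guanylate-binding proteins and IRG proteins are loaded onto membranes with the help of the autophagy conjugation proteins and feed caspases of the inflammasome. Of 19 such genes 17 were tested and 0 passed in limma in any comparison, with a median change of 0.37 with both forms together. At an unadjusted p under 0.05 there were 6 with both forms together (15.4% of all tested genes), 2 in CTdel against con (11.8%), 8 in ICN against con (15%) and 3 in CTdel against ICN (7.13%). Casp1, the caspase of canonical inflammasomes, was at 34.23 and 21.88 FPKM in CTdel and 35.43 and 29.94 FPKM in ICN, against 16.64 and 8.98 FPKM in con. The groups with a Notch1 form did not overlap with con, and the change of 1.22 (SE 0.197, adjusted p = 0.0609) narrowly missed the threshold. Nlrp3, the sensor that Gbp5 acts on, was at 9.25 and 1.84 FPKM in CTdel and 2.94 and 0.67 FPKM in ICN, against 0.38 and 0.1 FPKM in con, with a change of 1.59 (adjusted p = 0.114). It was higher in CTdel than in ICN in both replicates. The change was 1.66 for Casp4, the sensor of bacterial lipopolysaccharide (adjusted p = 0.206), and 1.09 for Trim21, a ubiquitin ligase (adjusted p = 0.275). For the conjugation targets Map1lc3b and Gabarap it was 0.66 (adjusted p = 0.313) and 0.61 (adjusted p = 0.321). The conjugation genes Atg3, Atg5, Atg7 and Atg16l1 had changes of −0.20 to 0.20 with both forms together.

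The genes around the GTPases were compared to see whether whole stretches of chromosome moved. Of 26 tested genes within 200 kb of a member and on no GTPase list, 8 had all 4 libraries with a Notch1 form above con, against 12% of all tested genes, and the median change with both forms together was 0.21, against −0.03 over all tested genes. The single one that passed, in a comparison that called 1.01% of all tested genes higher, was 9930111J21Rik2 near Irgm1, at 4.22 and 2.8 FPKM in CTdel and 2.7 and 2.1 FPKM in ICN, against 0.33 and 0.25 FPKM in con (change 1.59, adjusted p = 0.0359). For its neighbour 9930111J21Rik1 the change was 2.59 (adjusted p = 0.0755), and for Rack1, a ribosomal scaffold gene beside Irgm1, it was −0.04. The listed GTPase gene Gm5431 shares 27.2% of its 50-base stretches with 9930111J21Rik1, so the neighbours are not all separate from the GTPase genes in sequence. Psme2b, also among the 8, overlaps with 9930111J21Rik1 in position, so these 8 do not all count as independent. Sequence shared between 9930111J21Rik1 and 9930111J21Rik2 was not measured. Whether these genes code for GTPases themselves was not checked, so they cannot be taken as neighbours from outside the family.

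Outside these lists, the tested genes whose 4 within-table changes came closest to the median of the 9 tested members were Samd9l, Herc6, Sp140, Phf11b, Agrn and Trim30a. Likeness was the root mean square difference over the 4 changes, among 11029 genes, and ran from 0.095 (Samd9l) to 0.223 (Trim30a). Samd9l, the closest, was at 46.2 and 47.75 FPKM in CTdel and 59.23 and 99.99 FPKM in ICN, against 30.6 and 12.07 FPKM in con. By the same measure the members themselves lay 0.168 (Gbp7) to 1.55 (Gbp5) from their median.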

How the data were processed

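Polyadenylated RNA of 6 BaF3 libraries was measured, 2 in each of 3 groups, and per the labels' protocols the MGIEasy mRNA kit was used. Builds mm10 and hg19 and the tools RSEM, HISAT2 and Bowtie2 are named in the submitters' processing notes without role or version. Per the file headers the authors deposited FPKM per gene, 1 table per replicate number, with 17877 and 17868 genes, 16799 of them in both. Genes at 0 throughout a table numbered 341 in replicate 1 and 0 in replicate 2, so the tables were not filtered alike. Of 18946 gene IDs, 18898 were found in the RefSeq table of GRCm38.p6, which gave coordinates, and 26 symbols that had turned into dates were restored. FPKM keep no read totals, so no counting intervals are given; relative depth is the median over 33 transcript lengths of the lowest value above 0.

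The test was that of limma 3.58.1 (R 4.3.3) on log2(FPKM + 1), 2-sided with an intensity trend, with groups and table as terms over all 6 libraries (2 residual degrees of freedom, median prior 3.82). Tested were 11050 genes at or above 1 FPKM in at least 2 libraries, adjusted by Benjamini-Hochberg, and adjusted p under 0.05 counted as passed. The log scale with its pseudocount understates changes of low genes. "Both forms" is the mean of CTdel and ICN. The fit was tested on simulated data.

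Members and lists were chosen with earlier results of these data known, so no test was made over a list. Named were all members and the other GTPases, and from the signalling, ligand and partner lists those with the smallest p with both forms together plus genes chosen by role; of these lists and the markers, some items are not reported here. Overlap between genes was counted as shared 50-base stretches of transcripts. Alternatives covered the table term, pseudocount, filter, scaling, spread, libraries fitted and each library left out.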

Additional observations from a re-analysis of the deposited data

Results flagged for a closer look

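Atg12, a ubiquitin-like conjugation protein of autophagy, was flagged because its within-table changes were negative in CTdel and positive in ICN. In ICN replicate 1 it was almost level with con replicate 1. Its change against con in replicates 1 and 2 was −0.67 and −0.15 in CTdel and 0.01 and 0.93 in ICN, on the log2(FPKM + 1) scale. CTdel differed from ICN by −0.88 (adjusted p = 0.658 in limma), so the difference did not pass its test. Atg12 was at 20.63 and 17.24 FPKM in CTdel and 33.73 and 37.57 FPKM in ICN, against 33.53 and 19.18 FPKM in con. CTdel thus overlapped with con.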

How the results depend on the processing

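As reported, the test called 156 genes for CTdel against con, 4 for ICN against con, 123 for both forms against con and 2 for CTdel against ICN. With no filter on low values it called 0 in all 4, with 1592, 2328, 2098 and 1386 genes at an unadjusted p under 0.05. For CTdel against ICN it called 0 with a pseudocount of 0.1 (744 at an unadjusted p under 0.05) and 1 with a filter of FPKM of at least 5. With only the groups compared in the fit, it called 730 genes for CTdel against con, among them 5 members, and 162 for ICN against con, among them 4. Leaving out each library in turn gave 109 to 731 genes for CTdel against con, 11 to 1470 for ICN against con, 48 to 1240 for both forms against con and 2 to 891 for CTdel against ICN. The highest counts against con in ICN and in both forms, and the highest for CTdel against ICN, came without ICN replicate 1, where 9, 9 and 8 of the 9 tested members passed. A lone library is then assumed to vary like the other groups. Without the table term, that is with no replicate block, it called 130, 3, 132 and 2 genes, and Gbp9 passed with both forms together (adjusted p = 0.0481). Deviations from group means of same-numbered libraries correlated across genes at 0.236 (CTdel and ICN), 0.326 (CTdel and con) and −0.0988 (ICN and con), so the numbers are not shown to pair samples. The call of Gbp5 with both forms was lost with a pseudocount of 0.1 (adjusted p = 0.0598), with no filter (0.246), with quantile normalization (0.05001) and without con replicate 2 (0.102). Without con replicate 2 the change turned negative for Irgm1 (−0.27), Irgm2 (−0.60) and Ifi47 (−0.51) in CTdel, and for Irgm2 (−0.11) and Ifi47 (−0.14) in both forms together; without con replicate 1 these were 1.38, 1.74, 1.27, 2.24 and 1.64. Without ICN replicate 2 the difference of CTdel from ICN turned positive for Gbp3 (0.14), Gbp5 (0.52), Gbp7 (0.0061), Gbp9 (0.42), Igtp (0.21), Irgm2 (0.12) and Ifi47 (0.089); without ICN replicate 1 these were −2.83, −1.27, −1.14, −1.81, −1.67, −2.10 and −1.59. No member changed direction under any of the settings that kept all 6 libraries. The causes were not tested.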
